A study of Mus musculus with 20 samples.

Results

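Hoxa2, Hoxa3, Hoxb1, Hoxb2 and Hoxb3 are anterior Hox genes, and Hotairm1 is a noncoding RNA read from the anterior end of the HoxA cluster on the strand opposite to the Hox genes. These 6 genes were taken by symbol from the 27998 genes of each single-cell table, and their unique molecular identifiers (UMIs, 1 per captured RNA molecule) were summed over the cells of each treated population. All 6 were found in the germ layer, mesendoderm and mixed experiments.

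The cells were mouse embryonic stem cells of 1 male line of the 129P2/OlaHsd strain, and no group carried a labelled mutation or, in the single-cell experiments, a reporter. Each of the 3 single-cell experiments was 1 pooled droplet library, in which a cell's treatment was read from barcodelets, short tag RNAs transfected into the wells before harvest. All cells had been kept with leukaemia inhibitory factor, serum, a GSK3 inhibitor and the MEK inhibitor UO126, taken off both inhibitors, and moved to serum-free and then low-serum medium before treatment. Combinations were then given for 24 h. In the germ layer experiment 5 signals were each plus or minus, which gave 32 combinations of 1 population each. RA was retinoic acid against CD 2665, an antagonist of retinoic acid receptors. Wnt was GSK3 inhibitor XV, which activates the pathway, against IWR1, which blocks it. Tgfb was Activin A against A8301, Bmp was Bmp4 against Dorsomorphin, and Fgf was Fgf2 against UO126. There was no arm without compound in that experiment, so each difference is between an activator and an inhibitor. Cells of the mesendoderm experiment were held for 24 h with Fgf2, Activin A, Dorsomorphin, CD 2665 and GSK3 inhibitor XV before 7 signals were combined, the same 5 with Notch and sonic hedgehog (Shh), in 384 wells. The mixed experiment set the 5 signals in 144 wells on cells with that same mesendoderm start or with an undirected start, including 8 control wells per start that received no combination. The design tables of these last experiments give plus and minus without compounds. The labels carry 1 and the same description, of 144 conditions on both starts, for all 3 single-cell experiments. It fits the mixed design table alone, so the designs of the germ layer and mesendoderm experiments, and the germ layer compounds, were taken from their own deposited tables, which name no start. The starts of the germ layer and mesendoderm cells are uncertain to that extent. The bulk libraries held untransfected cells, cells at 24 h and 72 h after barcodelet transfection, and cells sorted by flow cytometry as Foxa2GFPplus, Foxa2GFPminus and Tdgf1GFPplus. What the sorted cells were treated with, and whether libraries with different numbers came from separate cultures, is not stated, so bulk p-values measure the spread between these libraries, which may be technical.

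Hox genes encode homeodomain transcription factors that give cells their position along the head to tail axis, and the order of the genes in a cluster follows the order of their expression along that axis. The anterior members are the first to be turned on in the embryo, and they are expressed in the hindbrain, where retinoic acid switches them on through its nuclear receptors. Hoxb1 is needed for the identity of the fourth rhombomere, a segment of the hindbrain, Hoxa2 for the second rhombomere and the second pharyngeal arch, and Hoxa3 for organs of the third arch such as the thymus. Hoxb2 and Hoxb3 act in hindbrain segments and the nerves that leave them, and Hotairm1 is known as an RNA induced by retinoic acid in myeloid and neural cells.

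In GRCm38 with the GENCODE vM21 annotation, Hotairm1 spans chr6:52156902-52162119 on the plus strand, Hoxa2 chr6:52162417-52164831 and Hoxa3 chr6:52169062-52213336 on the minus strand. Hoxb3 spans chr11:96323326-96347930, Hoxb2 chr11:96350525-96354012 and Hoxb1 chr11:96365752-96368256, all on the plus strand. Several of these models overlap others, and no source used here states if reads were counted by strand, so their counts are uncertain to that extent. Hoxb2 lies within the antisense RNA Hoxb3os over its whole 3488 bases. Hoxa3 shares 2834 bases with Hoxa5 on the same strand, Hoxb3 4859 bases with Hoxb3os, and Hoxa2 1473 bases with the model Gm28308.

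The 250 bases before the start of 3 members, read 5′ to 3′ on the gene's strand from RefSeq on GRCm38.p6, are shown as the stretches that hold the start of these genes, for which a promoter entry was found. They lie at chr6:52164832-52165081 (minus strand, Hoxa2), chr6:52213068-52213317 (minus strand, Hoxa3) and chr11:96365508-96365757 (plus strand, Hoxb1). Capitals mark matches on either strand to TGATNNAT, the site bound by a Hox protein paired with its cofactor Pbx.
Hoxa2: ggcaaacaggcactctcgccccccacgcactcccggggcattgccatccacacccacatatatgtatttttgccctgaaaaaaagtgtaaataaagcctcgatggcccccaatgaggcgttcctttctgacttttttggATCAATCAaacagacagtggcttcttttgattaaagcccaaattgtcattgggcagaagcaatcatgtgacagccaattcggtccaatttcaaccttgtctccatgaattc
Hoxa3: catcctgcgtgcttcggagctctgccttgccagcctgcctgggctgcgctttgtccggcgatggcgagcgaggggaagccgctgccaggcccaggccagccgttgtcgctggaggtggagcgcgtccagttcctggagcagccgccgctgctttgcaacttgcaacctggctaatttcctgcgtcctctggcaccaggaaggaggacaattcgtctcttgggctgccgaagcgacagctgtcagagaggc
Hoxb1: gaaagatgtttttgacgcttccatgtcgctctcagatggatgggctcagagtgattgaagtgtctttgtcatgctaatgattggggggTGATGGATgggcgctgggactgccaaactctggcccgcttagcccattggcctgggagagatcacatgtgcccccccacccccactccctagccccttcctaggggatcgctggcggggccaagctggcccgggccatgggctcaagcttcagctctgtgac
The Hoxb1 window held 1 match, TGATGGAT, 162 bases before the start, and the Hoxa2 window 1 match on the other strand, ATCAATCA, 111 bases before the start. The Hoxa3 window held none, and 7.68% of 32851 promoter windows of this length held at least 1. The Tcf/Lef core CTTTGT, searched on both strands, was found in the Hoxa3 window 202 bases and in the Hoxb1 window 187 bases before the start, and in 16.5% of all windows. The letters AGGTCA and AGTTCA of retinoic acid response elements and the other Tcf/Lef form CTTTGA, each searched on both strands, were in none of the 3 windows. They were in 14.02%, 11.8% and 13.8% of all windows. Such matches are letters in a window and not measured binding. Hoxb2, Hoxb3 and Hotairm1 are not shown.

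Cells with a barcodelet assignment that passed were 4350 of all 8421 cells in the germ layer experiment. They were 2899 of 12781 in the mesendoderm experiment and 4869 of 5944 in the mixed experiment. Populations held 70 to 230 cells and 991630 to 3816595 UMIs in the germ layer experiment. Of the 384 mesendoderm wells 300 held at least 5 cells and were tested, with 27701 to 332644 UMIs each, and of the 144 mixed wells 142, with 101140 to 2119355 UMIs. The members were sparse. Over the cells that passed, they gave 276 (Hoxb3) to 6565 (Hotairm1) UMIs in the germ layer experiment. They gave 153 (Hoxa2) to 2637 (Hoxb2) in the mesendoderm experiment and 258 (Hoxa2) to 5087 (Hoxb2) in the mixed experiment. Cell barcodes shared by 2 libraries numbered 64 to 151, out of at least 5944 cells in each. All 8 pluripotency markers were detected in every group of populations, and all 6 mesendoderm markers in every group of the mesendoderm experiment. Levels are given as CPM, the count of a gene scaled to a common library total, and they are compared for 1 gene across populations, not between genes of different length.

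Averaged over the other signals of the germ layer experiment, RA was called higher for every member except Hoxb1. With the pairwise products of the signals in the model, the RA effect on Hoxb1 was called too. Hotairm1 ranged from 14.7 to 69.0 CPM with a median of 25.8 over the 16 RA minus populations, and from 81.1 to 206 CPM with a median of 123 over the 16 RA plus populations. These groups did not overlap, and how many of all genes had such groups was not counted. Its RA effect was 2.11 ± 0.15 on the log2 scale (SE), with an edgeR adjusted p of 6.17e-13. In all, 5 of 6 members were higher with RA, where 14.1% of the 10614 genes tested were higher. The median effect was 2.09 over the members and -0.0037 over all genes.

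**Figure D1:**
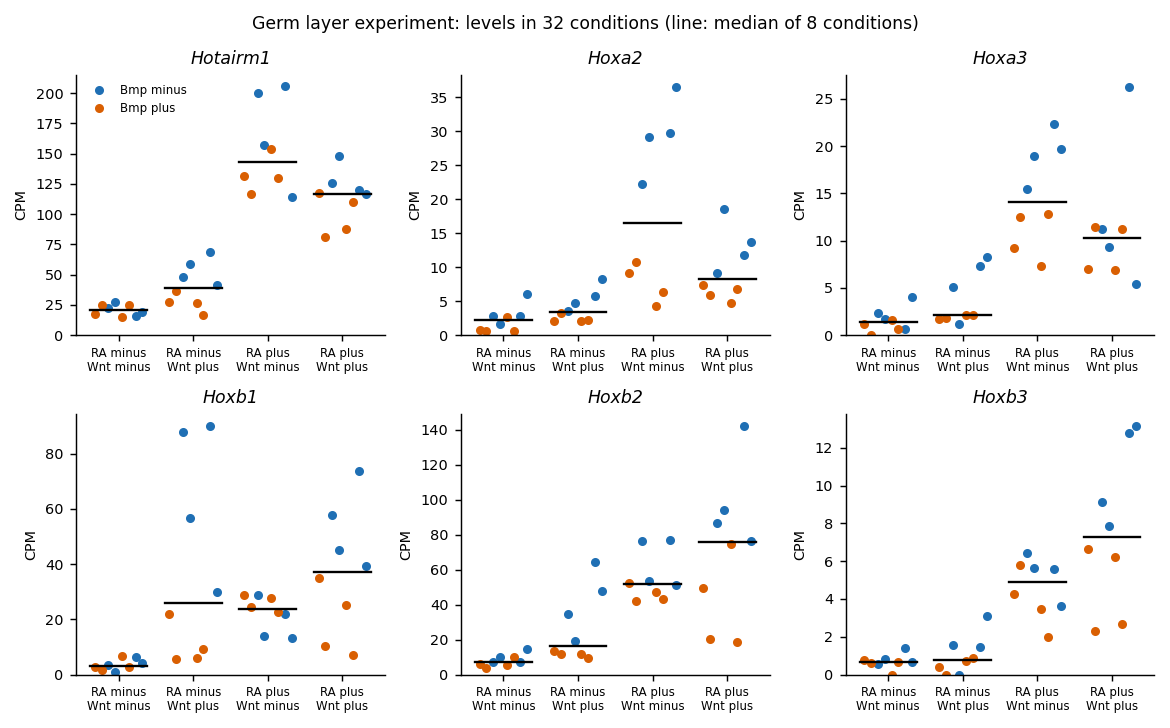
Level of each member (CPM, linear axis, 1 panel per gene) in the 32 germ layer populations, grouped by RA and Wnt, where each point is 1 population, coloured by Bmp, and each line the median of 8 populations. The RA plus populations of Hotairm1 lie at 81.1 CPM or above and the RA minus populations at 69.0 CPM or below, while Hoxb1 with RA minus and Wnt plus spreads from 5.52 to 89.9 CPM.

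Hoxb3 had the largest fitted RA effect of the members, 2.86 ± 0.26, from a median of 0.684 CPM (0 to 3.11) to 5.73 CPM (1.97 to 13.1). Hoxa3 followed with 2.32 ± 0.24, from a median of 1.76 CPM (0 to 8.28) to 11.3 CPM (5.38 to 26.2). Hoxa2, with an effect of 2.07 ± 0.21, went from a median of 2.77 CPM (0.607 to 8.28) to 9.97 CPM (4.32 to 36.5), and Hoxb2 from 10.8 CPM (3.64 to 64.1) to 53.0 CPM (18.4 to 142), with an effect of 1.97 ± 0.19. Differences between these effects were not tested. The groups of these 4 genes overlapped at their edges. The adjusted p-values ran from 2.27e-10 for Hoxb3 to 3.46e-09 for Hoxa3. A level of a summed population does not separate more cells that use a gene from more RNA in each such cell.

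Hoxb1 was called for Wnt and not for RA. Averaged over the other signals, its RA effect was 0.80 ± 0.31 and was not called, while its Wnt effect was 1.33 ± 0.31 (adjusted p 0.00159). With both RA and Wnt minus, Hoxb1 lay between 0.845 and 6.54 CPM with a median of 3.09 over 8 populations. It lay between 5.52 and 89.9 CPM (median 26.0) with Wnt alone plus, between 13.2 and 28.9 CPM (median 23.6) with RA alone plus, and between 7.18 and 73.5 CPM (median 37.2) with both. Every RA alone population thus lay above every population with neither, whereas the Wnt alone populations reached down into that range. The product of RA and Wnt, which is the RA effect where Wnt was plus less the RA effect where Wnt was minus, was -2.39 ± 0.34 for Hoxb1 (adjusted p 4.69e-05). With the pairwise products in the model, the mean RA effect on Hoxb1 was 1.47 ± 0.17 and passed the test.

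The RA with Wnt product was below 0 for other members too. It was called for 4 of 6, Hoxb1, Hoxa2 (-1.65 ± 0.33), Hotairm1 (-1.32 ± 0.21) and Hoxb2 (-1.32 ± 0.27), where 1.8% of 11410 genes had a lower product. Hoxa2 had medians of 2.21 CPM with neither signal, 3.41 with Wnt alone, 16.5 with RA alone and 8.24 with both. Hotairm1 had medians of 20.7, 38.9, 143 and 117 CPM in the same order. For both, the level with RA and Wnt together lay below the level with RA alone. Hoxb2, with medians of 6.98, 16.3, 51.8 and 75.6 CPM, was instead highest with both, and its product below 0 came with a smaller relative step from Wnt where RA was plus. Hoxb3 (0.666, 0.785, 4.92 and 7.27 CPM) and Hoxa3 (1.40, 2.14, 14.1 and 10.3 CPM) had no called product.

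Fits within each RA level, added after the products had been seen, gave the Wnt effect itself. With RA minus, Wnt raised Hoxb1 by 3.20 ± 0.36, Hoxb2 by 1.58 ± 0.25 and Hotairm1 by 0.90 ± 0.19 on the log2 scale, where 13.4% of genes were called either way. These were the 3 members that passed the filter on low counts among the RA minus populations, and Hoxa2, Hoxa3 and Hoxb3 were not tested there. With RA plus, where 18.7% of genes were called, Wnt lowered Hoxa2 (-0.88 ± 0.18) and Hotairm1 (-0.42 ± 0.10) and raised Hoxb3 (0.71 ± 0.23). Hoxb1 with RA plus had a Wnt effect of 0.63 ± 0.25 that was not called. So the sign of the Wnt effect on Hotairm1 turned with RA, and that on Hoxb1 shrank. In the fit over all populations, the Wnt effect was called for 3 of 6 members, Hoxb1, Hoxb2 (0.58 ± 0.18) and Hoxb3 (0.64 ± 0.22), where 12.1% of genes were higher. The call of Hoxb3 was lost in DESeq2 and with the pairwise products in the model.

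**Figure D2:**
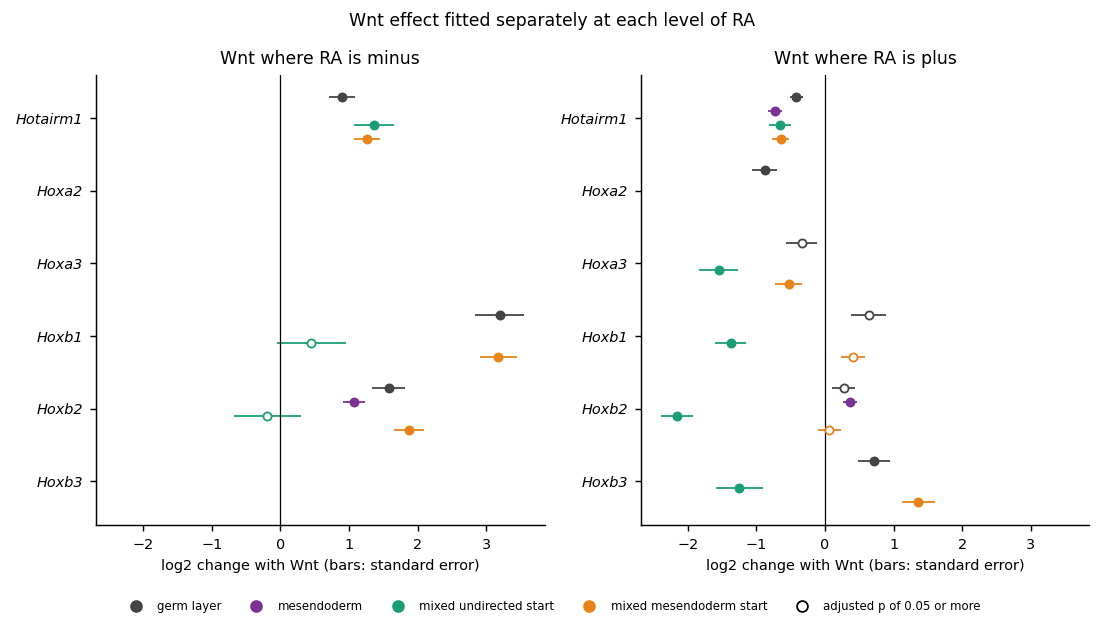
Wnt effect on each member (log2 change from minus to plus, with its standard error) fitted in the RA minus and in the RA plus populations of each experiment and start, for members that passed the filter, with open points at an adjusted p of 0.05 or more. The germ layer effect on Hoxb1 is 3.20 with RA minus and 0.63 with RA plus, and the effect on Hotairm1 changes from 0.90 to -0.42.

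Bmp lowered all 6 members in the germ layer experiment, where it lowered 21.5% of genes and moved 43.1% either way. The Bmp effect was -1.49 ± 0.19 on Hoxa2 (adjusted p 9.58e-08), -1.16 ± 0.31 on Hoxb1, -1.04 ± 0.18 on Hoxb2, -0.89 ± 0.22 on Hoxb3, -0.88 ± 0.22 on Hoxa3 and -0.48 ± 0.14 on Hotairm1. Among RA plus populations, Hoxa2 lay between 9.16 and 36.5 CPM (median 20.4) with Bmp minus and between 4.32 and 10.7 CPM (median 6.56) with Bmp plus. The 4 highest Hoxa2 levels, 36.5, 29.7, 29.2 and 22.2 CPM, were all those with RA plus, Wnt minus and Bmp minus, whatever Tgfb and Fgf were. With RA plus, Wnt minus and Bmp plus, Hoxa2 was at 4.32, 6.39, 9.20 and 10.7 CPM, so these groups of 4 did not overlap. Hoxb2 in RA plus populations fell from a median of 76.7 CPM (51.0 to 142) with Bmp minus to 45.2 CPM (18.4 to 74.6) with Bmp plus, with overlap.

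The Wnt step of Hoxb1 depended on Bmp. In the 4 populations with RA minus, Wnt plus and Bmp minus, Hoxb1 was at 30.0, 56.7, 87.8 and 89.9 CPM, and in the 4 with Bmp plus at 5.52, 5.92, 9.17 and 22.1 CPM, with no overlap. The Wnt with Bmp product was -2.01 ± 0.29 on Hoxb1 (adjusted p 5.14e-05) and -0.91 ± 0.22 on Hoxb2, 2 of 6 members, where 1.87% of genes had a lower product. The RA with Bmp product was called for Hoxb1 alone, at 1.07 ± 0.31 (adjusted p 0.0484), where 1.61% had a higher one, and DESeq2 did not call it (adjusted p 0.332). Within RA minus, where 25.0% of genes were called either way, the Bmp effect on Hoxb1 was -2.26 ± 0.31. Within RA plus, where 35.6% were, it was -0.59 ± 0.25 and not called. Hoxb1 was highest in the population with RA minus, Wnt plus, Tgfb minus, Bmp minus and Fgf plus (89.9 CPM) and next highest in its Tgfb plus counterpart (87.8 CPM). The populations highest in Hoxb2 (142 CPM) and Hoxa3 (26.2 CPM) had RA, Wnt and Fgf plus and Tgfb and Bmp minus, and in Hotairm1 (206 CPM) RA and Fgf plus with the rest minus. With 1 population per combination, neighbours in such an order have no error of their own and are not told apart.

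Tgfb and Fgf moved none of the members past the threshold in the germ layer fit over all populations, where they moved 7.02% and 7.93% of genes. In the RA plus populations alone, Fgf raised Hoxb2 by 0.65 on the log2 scale, in a fit where 4.05% of genes were called. The remaining 7 pairwise products were called for no member. They were called for 0.175% (RA with Tgfb), 0.412% (RA with Fgf), 3.01% (Tgfb with Bmp), 0.0175% (Tgfb with Fgf) and 0.0701% (Bmp with Fgf) of genes and, at 0.0%, for none with Wnt and Tgfb or Wnt and Fgf. For these last products edgeR gave 861 and 752 genes with an unadjusted p under 0.05, and DESeq2 called 1 and 4.

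**Figure D3:**
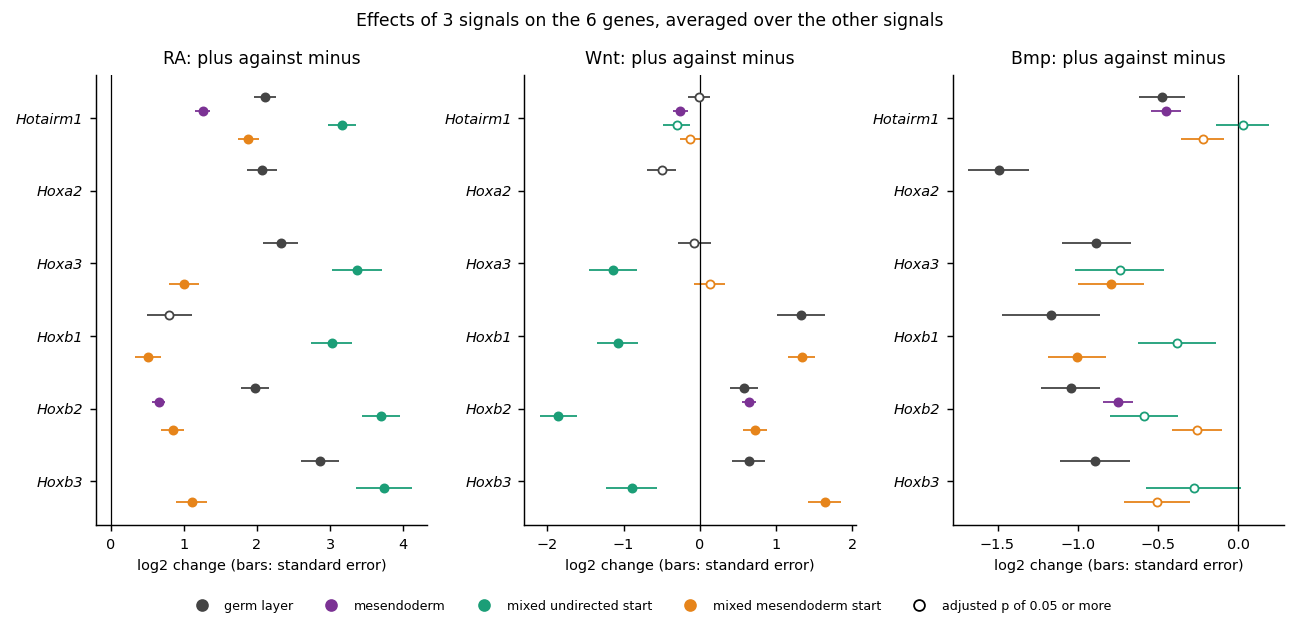
Effect of RA, Wnt and Bmp on each member (log2 change from minus to plus, error bars of 1 SE) in the germ layer, mesendoderm and mixed experiments, where open points had an adjusted p of 0.05 or more. RA effects are above 0 in each experiment and start, and the Wnt effect on Hoxb1 is -1.07 from the undirected and 1.34 from the mesendoderm start.

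The share of cells with at least 1 UMI gave the same order of groups for Hoxb1. Cells were thinned to 5000 UMIs each, which left 728 to 1346 cells per RA and Wnt group and dropped 29 to 59. Hoxb1 was then seen in 1.24% of cells with neither signal, 11.2% with Wnt alone, 10.2% with RA alone and 15.7% with both, and unthinned in 4.23%, 25.0%, 23.5% and 32.6%. Hotairm1 was seen in 7.69%, 16.0%, 47.6% and 37.7% of thinned cells, and Hoxb2 in 3.43%, 9.32%, 20.9% and 22.0%. With Wnt alone, 86 of 415 cells with Bmp minus had a Hoxb1 UMI (20.7%), against 21 of 540 with Bmp plus (3.89%). Free RNA in the pooled library adds UMIs to cells of every treatment, so the share in cells with neither signal holds that background as well as any expression. Shares of cells are a description, since the cells of a treatment share their wells.

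The mesendoderm experiment gave fewer cells per well, and only Hotairm1 and Hoxb2 passed the filter on low counts among 2328 genes, with Hoxb1 added in the fit of pairs among 3082. Both were higher with RA, Hotairm1 by 1.26 ± 0.10 (adjusted p 1.8e-28) and Hoxb2 by 0.65 ± 0.09 (adjusted p 5.76e-10), where 11.6% of genes were higher. Summed per combination of the other levels, Hotairm1 lay between 0 and 109 CPM (median 30.2) with neither RA nor Wnt and between 30.7 and 202 CPM (median 120) with RA alone, 32 combinations each. With Wnt alone its median was 48.6 CPM (12.3 to 119) and with both 69.4 CPM (27.5 to 132). The groups overlapped, and as in the germ layer cells the level with both signals was below that with RA alone.

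The RA with Wnt product was called below 0 for all 3 members that passed the filter, where 2.01% of genes had a lower product. It was -1.43 ± 0.18 for Hotairm1 (edgeR adjusted p 1.82e-10), -0.998 ± 0.236 for Hoxb1 and -0.63 ± 0.18 for Hoxb2. Hoxb1 had medians of 11.1 CPM (0 to 75.1) with neither signal, 68.3 CPM (10.7 to 160) with Wnt alone, 31.8 CPM (0 to 60.7) with RA alone and 54.8 CPM (9.84 to 107) with both. In this experiment Hoxb1 thus had its highest median with Wnt alone. Hoxb2 had medians of 27.6, 87.7, 69.1 and 98.2 CPM in the same order. Averaged over the other signals, Wnt raised Hoxb2 (0.65 ± 0.09) and lowered Hotairm1 (-0.25 ± 0.10, adjusted p 0.0241), where 39.6% of genes were called either way. Within RA minus the Wnt effect on Hoxb2 was 1.08 ± 0.16, where 28.0% of genes were called. Within RA plus it was 0.37 ± 0.10, with -0.73 ± 0.10 on Hotairm1, where 25.9% were called.

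Bmp lowered both tested members (Hotairm1 -0.45 ± 0.10, Hoxb2 -0.75 ± 0.09), where 15.9% of genes were lower, and so did Tgfb (-0.32 ± 0.10 and -0.42 ± 0.10), where 4.6% were lower. Fgf raised Hoxb2 by 0.32 ± 0.10 (adjusted p 0.0177), where 3.78% of genes were higher. The RA with Bmp product was above 0 for Hotairm1 (0.68 ± 0.18) and Hoxb1 (0.80 ± 0.23), 2 of 3 members, where 0.681% of genes had a higher product. Notch and Shh, which moved 1.16% and 0.043% of genes, moved neither member past the threshold.

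The other members could be tested in the mesendoderm experiment only without the filter on low counts, among 18974 genes. RA then raised Hoxb3 (1.31 ± 0.15), Hoxa3 (0.95 ± 0.18) and Hoxa2 (0.82 ± 0.20), where 4.22% of genes were higher, and had an effect of 0.01 ± 0.11 on Hoxb1 that was not called. Wnt raised Hoxb3 (0.98 ± 0.15) and Hoxb1 (0.96 ± 0.12), where 5.59% were higher, and lowered Hoxa2 (-0.69 ± 0.20), where 8.27% were lower. Bmp lowered Hoxb1 (-1.28 ± 0.12), Hoxb3 (-0.64 ± 0.15) and Hoxa3 (-0.60 ± 0.17), where 3.43% were lower. The RA with Wnt product was not called for Hoxa2 (-0.68 ± 0.49), Hoxa3 (-0.32 ± 0.30) or Hoxb3 (-0.08 ± 0.14), where 1.37% of genes were called either way. The RA with Bmp product was called above 0 for Hoxa2 (1.53 ± 0.41), where 0.964% were called either way. Hoxb3 had medians of 3.71 CPM with neither RA nor Wnt, 8.35 with Wnt alone, 14.3 with RA alone and 25.8 with both, whereas Hoxa2 had medians of 0, 0, 8.36 and 3.85 CPM. Hoxb3 was thus highest with both signals and Hoxa2 with RA alone. Several calls of this experiment depended on the minimum of cells per well, for a reason that was not tested. With wells of at least 10 cells only 1 member call remained among the pairs. With such wells the Bmp effect on Hotairm1 was -0.09 (adjusted p 0.796) and the Fgf effect on Hoxb2 0.09 (adjusted p 0.951), and both Tgfb calls were lost. Under all 8 alternatives together, Hotairm1 lost its Wnt call in 5 and its Tgfb call in 4.

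The mixed experiment compared the starts directly. From the undirected start, RA raised all 5 members tested (Hoxa2 did not pass the filter), where 16.9% of 8791 genes were higher. The effects were 3.74 ± 0.39 on Hoxb3, 3.70 ± 0.26 on Hoxb2, 3.37 ± 0.34 on Hoxa3, 3.16 ± 0.19 on Hotairm1 and 3.02 ± 0.29 on Hoxb1. Hoxb2 lay between 0 and 31.7 CPM (median 5.70) in the 16 wells with neither RA nor Wnt and between 4.40 and 254 CPM (median 140) in the 16 wells with RA alone. Hotairm1 rose from 0 to 16.8 CPM (median 6.72) to 79.2 to 165 CPM (median 109) between the same groups, with no overlap. Hoxb1 went from a median of 3.74 CPM (0 to 14.4) to 46.5 CPM (4.40 to 102), and Hoxa2 from a median of 0 to 5.40 CPM (0 to 14.2). Tested without the filter among 20754 genes, Hoxa2 rose with RA by 2.43 ± 0.37 from this start (where 8.34% of genes were higher) and by 1.56 ± 0.28 from the mesendoderm start (8.12%).

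**Figure D4:**
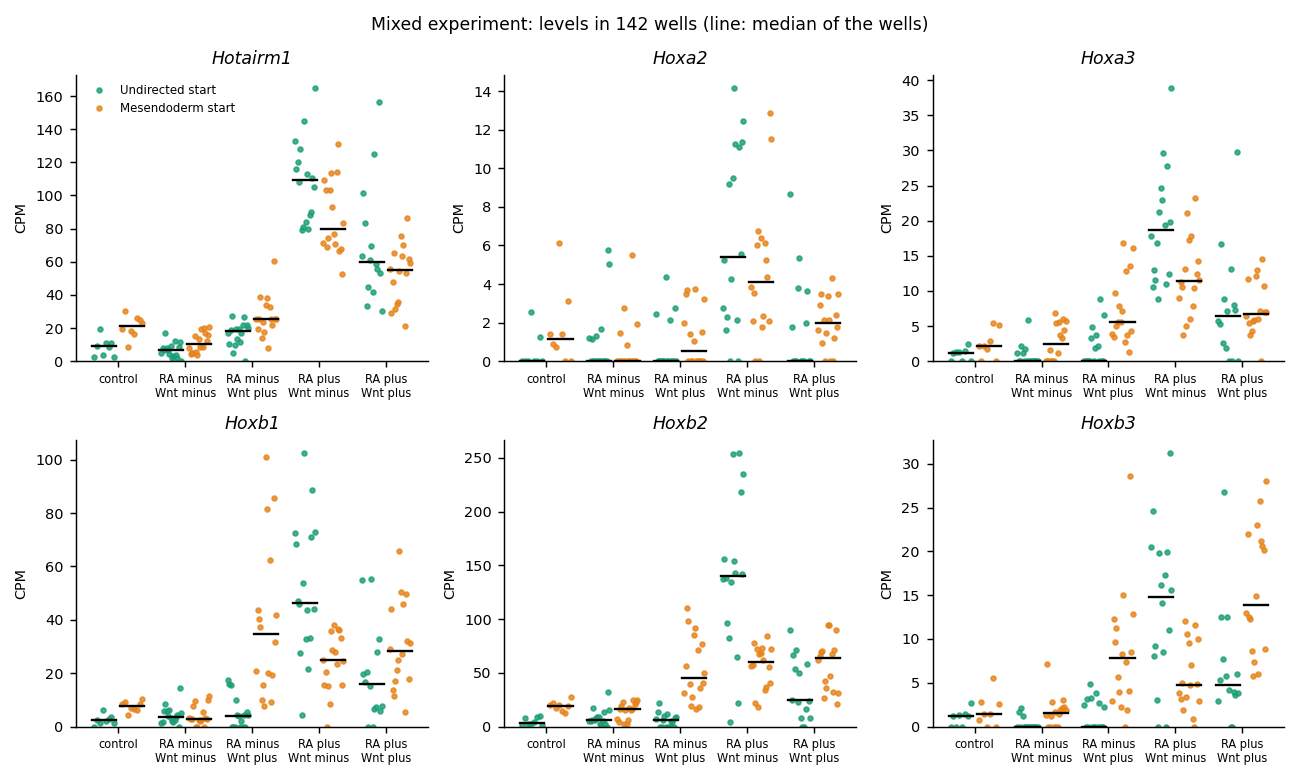
Level of each member (CPM) in the wells of the mixed experiment by start, RA and Wnt, with the control wells of each start, where each point is 1 well and each line a group median. From the undirected start Hoxb2 has its highest median with RA alone (140 CPM), and from the mesendoderm start Hoxb1 has its highest with Wnt alone (34.6 CPM).

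From the undirected start Wnt lowered 4 of the 5, Hoxb2 (-1.85 ± 0.25), Hoxa3 (-1.14 ± 0.32), Hoxb1 (-1.07 ± 0.27) and Hoxb3 (-0.89 ± 0.33), where 19.4% of genes were lower. Hoxa2, tested without the filter, was called lower at -1.15 ± 0.38, where 2292 of 20754 genes were lower. The call of Hoxb3 was lost in DESeq2 and with the wells of a combination summed. In the main fit from this start the RA with Wnt product was not called for Hoxb2, Hoxa3 or Hoxb3. Their Wnt effect was not shown to differ with RA by that fit, and Hoxa3 and Hoxb3 were not tested within RA minus. In the RA plus wells Hoxb2 had a median of 24.3 CPM (0 to 89.6) over the 14 wells with Wnt plus, against 140 CPM with Wnt minus. Those 14 wells held 5 to 29 cells each, and the wells with RA alone 13 to 64. None of the 14 had Tgfb minus, Bmp plus and Fgf minus, since no such well held at least 5 cells. Within RA plus, where 30.2% of genes were called, Wnt lowered all 5: Hoxb2 by -2.16 ± 0.23, Hoxa3 by -1.55 ± 0.29, Hoxb1 by -1.38 ± 0.23, Hoxb3 by -1.25 ± 0.35 and Hotairm1 by -0.66 ± 0.16. Within RA minus, where 21.4% of genes were called, Hotairm1 alone of 3 members tested passed, and it rose by 1.37 ± 0.29. Hoxb1 there had an effect of 0.45 ± 0.50 and Hoxb2 of -0.19 ± 0.49, with medians of 4.13 and 5.99 CPM with Wnt alone, beside 3.74 and 5.70 CPM with neither. With the pairwise products in the model, the mean Wnt effect from this start was called for Hoxb2 (-1.33) and Hoxb1 (-1.02) and not for Hoxa3 (-0.19) or Hoxb3 (0.18), whose sign turned.

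From the mesendoderm start RA raised the same 5 members, where 14.4% of genes were higher, by 1.88 ± 0.14 (Hotairm1), 1.11 ± 0.21 (Hoxb3), 1.00 ± 0.21 (Hoxa3), 0.84 ± 0.16 (Hoxb2) and 0.51 ± 0.18 (Hoxb1, whose call was lost with the wells of a combination summed). Wnt raised 3 of the 5 from this start, Hoxb3 (1.64 ± 0.21), Hoxb1 (1.34 ± 0.18) and Hoxb2 (0.72 ± 0.16), where 19.9% of genes were higher. Hoxb1 lay between 0 and 11.4 CPM (median 2.95) with neither signal and between 7.82 and 101 CPM (median 34.6) with Wnt alone. Its median was 24.8 CPM (0 to 38.04) with RA alone and 28.1 CPM (5.29 to 65.7) with both. Hoxb3 had medians of 1.55 CPM with neither, 7.79 with Wnt alone, 4.79 with RA alone and 13.9 with both. Within RA minus, where 27.6% of genes were called, Wnt raised Hoxb1 by 3.17 ± 0.27, Hoxb2 by 1.87 ± 0.22 and Hotairm1 by 1.26 ± 0.19. Within RA plus, where 30.9% were called, it lowered Hotairm1 (-0.65 ± 0.12) and Hoxa3 (-0.53 ± 0.20) and raised Hoxb3 (1.36 ± 0.23).

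The difference between starts was itself tested. The RA effect was smaller from the mesendoderm start for all 5 members, by -2.85 ± 0.32 (Hoxb2), -2.63 ± 0.48 (Hoxb3), -2.51 ± 0.36 (Hoxb1), -2.36 ± 0.43 (Hoxa3) and -1.28 ± 0.26 (Hotairm1), where 3.23% of genes had a lower RA effect from that start. The Wnt effect was larger from the mesendoderm start for 4 of the 5, by 2.58 ± 0.29 (Hoxb2), 2.53 ± 0.39 (Hoxb3), 2.41 ± 0.32 (Hoxb1) and 1.27 ± 0.38 (Hoxa3), where 4.14% of genes had a higher one. For Bmp, Fgf and Tgfb no member's effect differed between starts past the threshold, where 0.193%, 1.47% and 0.0% of genes did. For Tgfb 450 genes had an unadjusted p under 0.05 in edgeR, and DESeq2 called 0. The 6 mesendoderm markers summed to a median of 267 CPM (123 to 649) in the RA minus, Wnt plus wells of the mesendoderm start and 132 CPM (9.81 to 645) in those of the undirected start. Against RA minus, Wnt minus wells, at 66.8 and 29.4 CPM, both starts were higher, and the part of these markers in the Hox levels was not tested.

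The RA with Wnt product was below 0 from both starts. From the mesendoderm start it was called for 4 of 5, Hoxb1 (-2.81 ± 0.31), Hoxa3 (-1.98 ± 0.39), Hotairm1 (-1.91 ± 0.23) and Hoxb2 (-1.89 ± 0.26), where 1.28% of genes had a lower product. From the undirected start it was called for Hoxb1 (-2.27 ± 0.60) and Hotairm1 (-2.17 ± 0.36), where 1.53% did. Single products were also called from the mesendoderm start for Wnt with Fgf on Hoxb2 (1.01 ± 0.26, where 0.245% of genes were higher) and Wnt with Tgfb on Hoxb3 (-1.57 ± 0.40, where 0.138% were lower). The first was lost under 3 of 8 alternatives (DESeq2, wells of at least 10 cells and control wells left out) and the second under 2 of 8.

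Bmp lowered Hoxb1 (-1.004 ± 0.180) and Hoxa3 (-0.79 ± 0.21) from the mesendoderm start, where 5.36% of genes were lower. In the RA minus, Wnt plus wells of that start Hoxb1 had a median of 52.1 CPM (19.2 to 101) with Bmp minus and 18.1 CPM (7.82 to 43.7) with Bmp plus, with overlap. Fgf raised Hoxb1 (0.61 ± 0.18) and Hoxb2 (0.59 ± 0.16) from this start, where 7.12% were higher, and Hoxb1 (0.96 ± 0.25) from the undirected start, where 6.85% were higher. In DESeq2 the Fgf calls of Hoxb1 (adjusted p 0.142) and Hoxb2 (adjusted p 0.0826) from the mesendoderm start were lost, and that of Hoxb1 was also lost with the wells of a combination summed. No member passed for Bmp from the undirected start, where 3.49% of genes were lower. Tested without the filter, where 1.61% were lower, Hoxa2 (-1.09), Hoxa3 (-0.77) and Hoxb2 (-0.61) were called lower there, and within RA plus, where 3.38% of genes were called either way, Hoxb2 was (-0.70 ± 0.20). No member passed for Tgfb from the undirected or the mesendoderm start, where 4.14% and 6.96% of genes moved either way.

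The control wells, which received no combination, were low for every member. From the undirected start Hotairm1 was at 2.68 to 19.4 CPM (median 8.97), Hoxb2 at 1.34 to 9.95 CPM (median 3.51) and Hoxb1 at 0 to 6.33 CPM (median 2.28) over 8 wells. From the mesendoderm start they were at 8.86 to 30.3 (median 21.5), 12.6 to 27.2 (median 19.2) and 4.43 to 10.4 CPM (median 7.73). The groups of Hoxb2 did not overlap and those of Hotairm1 and Hoxb1 did, and overlap was not counted over all genes. The start difference in control wells was called for Hoxb2 (1.86 ± 0.55) and Hotairm1 (1.25 ± 0.39). These were 2 of 5 members, where 4.3% of genes were higher. Among treated wells 4 of 5 members were higher from the mesendoderm start, where 14.2% of genes were, by 0.82 (Hoxb1) to 1.16 (Hoxb3) on the log2 scale. Treated wells averaged above control wells for all 5 members from the mesendoderm start (where 7.0% of genes were higher) and for Hotairm1, Hoxb1 and Hoxb2 from the undirected start (where 8.3% were). These were averages over RA minus and RA plus. Undirected wells with both RA and Wnt minus had a median Hotairm1 level of 6.72 CPM, within the range of the control wells. From the mesendoderm start the wells with both minus had lower medians than the control wells, 10.3 against 21.5 CPM for Hotairm1 and 2.95 against 7.73 CPM for Hoxb1, with overlap.

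In the thinned cells of the mixed experiment, Hoxb1 was seen in 12.2% of cells with Wnt alone from the mesendoderm start and in 1.69% from the undirected start. Hoxb2 was seen in 189 of 546 cells (34.6%) with RA alone from the undirected start, with a mean of 2.31 UMIs and at most 9 in a cell that had any. The other members mostly gave 1 to 1.7 UMIs per such cell.

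The Wnt response of Hoxb1 without RA was thus 3.20 ± 0.36 in the germ layer experiment, 3.17 ± 0.27 from the mesendoderm start and 0.45 ± 0.50 from the undirected start of the mixed experiment. No difference between these responses was tested within RA minus, since the test between starts averaged over RA. The germ layer value also comes from a separate library. The compounds given as plus and minus in the mixed experiment are not named in its table.

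Related genes were counted to set the members beside their clusters and pathway. With RA in the germ layer experiment, where 14.1% of all genes rose and 13.6% fell, 7 of the 7 tested other Hox genes of paralogue groups 1 to 5 rose (median log2 effect 2.48), among them Hoxa5 (2.48 ± 0.19). All 3 tested noncoding RNAs of the Hox clusters rose too (median 1.96), with Hoxb3os at 1.96 ± 0.22, whose reads may be shared with Hoxb2 and Hoxb3. Of 17 tested genes of retinoid handling and reception 10 rose and 1 fell, led by Crabp2 (2.59 ± 0.14), a carrier of retinoic acid, and Rarb (3.08 ± 0.17), a retinoic acid receptor. Of 9 Hox cofactors 5 rose and none fell, including Meis1 (2.54 ± 0.17) and Pbx2 (0.79 ± 0.09), homeodomain proteins that bind DNA together with Hox proteins. Of 18 hindbrain regulators and targets 8 rose and 3 fell, with Cdx1 (1.62 ± 0.16), a regulator of Hox genes in the trunk, rising and Otx2 (-2.37 ± 0.22), the factor of forebrain and midbrain, falling.

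In the same experiment Bmp, which lowered 21.5% of all genes, lowered 6 of the 7 other Hox genes, Hoxa5 by -1.04 ± 0.18, and all 3 noncoding RNAs. Wnt, which raised 12.1% of all genes and lowered 11.9%, raised 3 of the 7 and lowered 1. It lowered 6 of 9 Hox cofactors and raised none, with Meis2 at -1.01 ± 0.18, and it raised Cdx1 by 2.42 ± 0.16 and Cdx2 by 2.41 ± 0.23. The RA with Wnt product was below 0 past the threshold for 2 of 9 tested other Hox genes, among them Hoxc4 (-2.28 ± 0.46), and for 1.8% of all genes. Between starts of the mixed experiment, the RA effect was smaller from the mesendoderm start for 6 of 6 tested other Hox genes (median difference -2.64) and for 3.23% of all genes. The Wnt effect was larger for 4 of 6 (median 2.12) and for 4.14% of all genes, with Hoxb5 at 4.10 ± 0.37 and Hoxb4 at 2.76 ± 0.26. The median difference over all genes was -0.0065 for RA and 0.0050 for Wnt.

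Markers of cell types moved with the same signals in the germ layer experiment. The 6 mesendoderm markers summed to a median of 90.4 CPM (29.5 to 223) with neither signal, 300 CPM (45.8 to 875) with Wnt alone, 29.3 CPM (23.0 to 46.4) with RA alone and 54.0 CPM (17.5 to 244) with both. The 7 markers of hindbrain and spinal progenitors, 6 of them detected, summed to medians of 29.4 CPM (12.5 to 80.5), 19.4 (14.6 to 43.2), 81.0 (26.3 to 191) and 34.5 CPM (23.7 to 96.8). In the RA plus groups the second list was lower with Wnt than without, and so were the sums of the other lists except mesendoderm. In this experiment Hoxb1 had its highest median with both signals and the mesendoderm list with Wnt alone. In the mesendoderm experiment, and from the mesendoderm start of the mixed experiment, both had their highest medians with Wnt alone. The list was there at medians of 530 and 267 CPM. The markers' part in the Hox levels was not tested.

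Of genes outside the 6 members with a mean CPM of at least 10, those most like each member were sought. They were ranked by the Pearson correlation r of log2(CPM + 5) over the 32 germ layer populations, a description within 1 library. For Hotairm1 they included Skap2 (r 0.95), which lies beside the HoxA cluster, and Tshz1 (0.92). In the wells of the mixed experiment Skap2 had r values of 0.51 in the undirected and 0.70 in the mesendoderm start. For Hoxb2 they included Hoxa5 (0.89) and Gm1673 (0.88), for Hoxb3 Csn3 (0.89), Hoxa5 (0.88) and Ptp4a3 (0.83), and for Hoxa3 they included Cfl2 (0.86) and Nsg1 (0.84). Hoxa2 was most like Chd7, Zfp422 and H2afy2 (0.87 each), and Hoxb1 most like Klhl22 (0.82), Oaf (0.82) and Cdh2 (0.78). The ranking left out Hoxb2, whose r of 0.80 with Hoxb1 was above that of Cdh2. In the mixed experiment r was 0.24 and 0.06 for Klhl22 with Hoxb1 and 0.16 and 0.20 for Zfp422 with Hoxa2, from the undirected and the mesendoderm start, so these likenesses were weaker there. Among the members themselves Hoxb2 and Hotairm1 (0.87), Hoxb2 and Hoxb3 (0.86) and Hoxa2 and Hoxa3 (0.85) were closest, and Hoxa2 and Hoxb1 (0.44) were the least alike.

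In the sorted bulk cells Hoxb1 had the smallest adjusted p of the members. It was at 137, 117 and 63.9 CPM in the 3 Foxa2GFPplus libraries, at 55.0 and 22.6 CPM in the 2 Foxa2GFPminus libraries and at 3.80 and 1.71 CPM in the 2 Tdgf1GFPplus libraries. The 3 groups did not overlap, and unsorted cells were at or below 0.402 CPM. Between Foxa2GFPplus and Tdgf1GFPplus 4 of 6 members were higher, where 4.8% of 13654 genes were: Hoxb1 (5.21 ± 0.59, adjusted p 0.000615), Hoxb2 (5.44 ± 1.01, adjusted p 0.00858), Hoxb3 (3.93 ± 1.07, adjusted p 0.0403) and Hoxa3 (adjusted p 0.00725). Hoxa3 had no read in either Tdgf1GFPplus library, and its mean of 15.1 ± 6.48 CPM (SD, n = 3) in Foxa2GFPplus was at least 20.7-fold higher than 3 reads in a library would give. Hoxb2 was at 5.22, 21.04 and 20.99 CPM against 0.211 and 0.487 CPM, with no overlap, and Hoxb3 at 2.28, 11.96 and 13.1 CPM against 0 and 1.22 CPM. Without either Tdgf1GFPplus library only 1 member call remained over the 3 sorted comparisons, that of Hoxb1, and without Foxa2GFPplus replicate 1 there were 12 in place of 4. The call of Hoxb3 was also lost without either Foxa2GFPminus library and without Foxa2GFPplus replicate 3 or 4, 6 of 11 alternatives in all, with log2 values from 2.89 to 9.42. Hoxb3 was at 12.9 and 9.75 CPM in Foxa2GFPminus, within the range of Foxa2GFPplus.

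**Figure D5:**
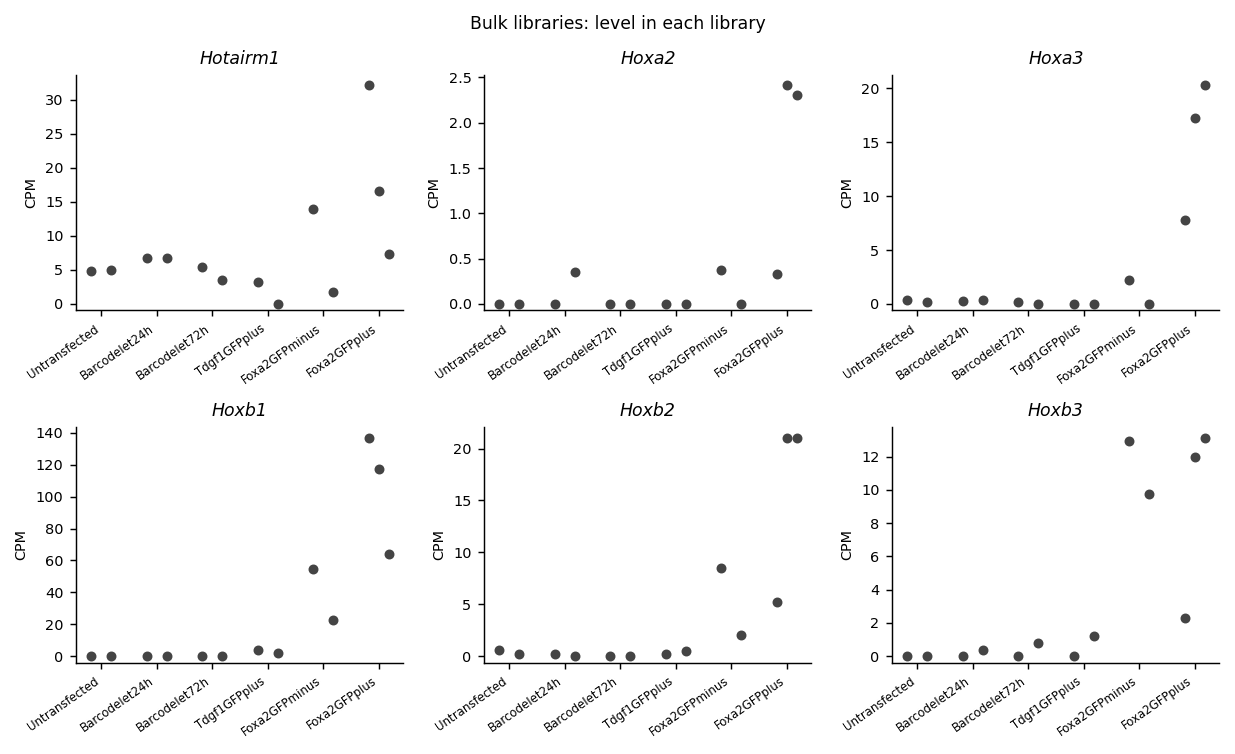
Level of each member (CPM) in the 13 bulk libraries by group, 1 point per library. Hoxb1 lies at 63.9 CPM or above in the Foxa2GFPplus libraries and at 3.80 CPM or below in the Tdgf1GFPplus libraries.

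Foxa2 is a transcription factor of endoderm and axial midline, and Tdgf1 encodes a co-receptor of Nodal found in pluripotent cells and the early streak. Between Foxa2GFPplus and Foxa2GFPminus no member passed, where 2.39% of genes did. Without Foxa2GFPplus replicate 1, 8 more member results were called over the sorted comparisons. Foxa2GFPplus against Tdgf1GFPplus had fewer uncalled members than that, so some of these calls were in the comparisons with Foxa2GFPminus. Hoxa3 was at 7.82, 17.2 and 20.3 CPM against 2.21 and 0 CPM with an adjusted p of 0.0704, and Hotairm1 at 32.1, 16.5 and 7.35 CPM against 14.02 and 1.74 CPM, with overlap. Between Tdgf1GFPplus and Foxa2GFPminus edgeR called 0 of 13654 genes (0.0%), of which 1321 had an unadjusted p under 0.05, and DESeq2 called 138. After barcodelet transfection only Hotairm1 passed the filter on low counts, and none of the other 5 was called without the filter. It was at 4.83 and 5.02 CPM untransfected, 6.73 and 6.78 CPM at 24 h and 5.36 and 3.52 CPM at 72 h, and was called at neither time, where 0.0344% and 0.0258% of genes were.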

How the data were processed

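HTSeq 0.9.1, STAR 2.5.2b and Cell Ranger 1.3.1 are the tools in the submitters' processing notes, which give mm10 as the genome build. No source used here ties a tool to a table. The authors deposited raw UMI counts per gene and cell for the single-cell experiments and raw read counts per gene for the bulk libraries, with each cell's barcodelet assignment and pass flag. Of the 14 labelled bulk libraries 13 were used, and Foxa2GFPplus replicate 2 was not analysed here.

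UMI counts of cells with the pass flag were summed per population, with at least 5 cells, and no doublet caller was run. Each table was fitted with edgeR 4.0.16 in R 4.3.3 (TMM scaling, filterByExpr, 2-sided quasi-likelihood test, Benjamini-Hochberg adjustment over all genes of a comparison, threshold 0.05). Signals were coded 0.5 (plus) and -0.5 (minus), and a standard error is the log2 effect over the root of its F value. Wells of the mixed experiment entered 1 fit with the signals nested in the start and an indicator of control wells per start. Transfection libraries and sorted libraries were fitted apart, with no block. CPM use TMM-scaled library sizes. DESeq2 1.42.0, RLE scaling, no filter, all assigned cells, other cell minimums, summed wells, a replicate block and libraries left out were alternatives. The procedure was tested on simulated counts.

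The 6 members were named in every comparison. Each came with the 3 other genes of highest correlation over the germ layer populations (mean CPM of at least 10), members left out. Of 5 lists of 70 genes, counts and the 2 genes of smallest adjusted p were named. Some genes that this rule names are not reported here. The members and lists were chosen with earlier results of these data known. Promoter sequences were read from RefSeq on GRCm38.p6, and gene positions from GENCODE vM21 on GRCm38.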

Additional observations from a re-analysis of the deposited data

Results flagged for a closer look

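The effects of RA and of Wnt on the members differed between the starts of the mixed experiment by a test of the difference itself (edgeR, adjusted p under 0.05). For RA, the log2 effect from the mesendoderm start less that from the undirected start was -2.85 for Hoxb2, -2.63 for Hoxb3, -2.51 for Hoxb1, -2.36 for Hoxa3 and -1.28 for Hotairm1. For Wnt it was 2.58 for Hoxb2, 2.53 for Hoxb3, 2.41 for Hoxb1 and 1.27 for Hoxa3, and the call of Hoxa3 was lost when the wells of a combination were summed (adjusted p 0.0715). Both starts were in 1 pooled library, so these differences are not between libraries.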

How the results depend on the processing

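Of 92 called effects of a member, 61 stayed called under every alternative run on them, and in 684 checks 629 kept the call. Counts of member calls per group of comparisons moved past 1.5 times as follows. Without the filter on low counts they were 16 in place of 9 for the mesendoderm signals, 9 in place of 5 for the mesendoderm pairs, 17 in place of 10 for the undirected signals, 9 in place of 2 for the undirected pairs and 10 in place of 4 for the sorted cells, and the cause was not tested. The mesendoderm pairs gave 3 with all assigned cells and 1 with wells of at least 10 cells. With the wells of a combination summed, which leaves 1 control population per start, the start difference in control wells gave 0 in place of 2 and treated against control wells 1 in place of 8. DESeq2 gave 4 in place of 2 for the undirected pairs and 8 in place of 4 for the sorted cells, and all 13 bulk libraries in 1 fit gave 8 for the latter. Leaving out 1 sorted library gave 1 to 12, and leaving out 1 transfection library gave 0 throughout. Of the 18 most alike genes 10 were shared when the minimum mean CPM was 3. The share of germ layer cells with a Hoxb1 UMI with Wnt alone was 11.2% thinned and 25.0% unthinned.

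Signs turned for Wnt effects averaged over RA. Within RA minus, Hotairm1 was at 0.90 in the germ layer experiment, 1.26 from the mesendoderm start and 1.37 from the undirected start, each called. Hoxb1 from the undirected start was there at 0.45 ± 0.50 and not called, so a turn of its sign was not shown. Within RA plus, Hoxa3 from the mesendoderm start was at -0.53. With the pairwise products, Hoxb3 from the undirected start was at 0.18 and not called. The cause was not tested beyond the RA with Wnt products.

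With the repeat well as a replicate block, the mesendoderm experiment gave 8 member calls in place of 9 for the signals (Hotairm1 with Tgfb was lost) and 5 of 5 for the pairs. With the replicate number as a replicate block, the transfection set gave 0 calls, as without it. Same-numbered libraries there had correlations of -0.157 to 0.109, so the numbers were not taken to pair them. A crossed replicate block of the 24 h and untransfected libraries called 24 genes, none a member. No block was possible for the mixed wells, whose table gives no repeat number, or for Foxa2GFPplus, which shares 1 number with each of the other sorted groups. Few UMIs limit Hoxa2 and Hoxb3 most.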

Other observations

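The Hox cofactors, the Meis and Pbx proteins that bind DNA beside Hox proteins, were tested in both starts of the mixed experiment. From the undirected start RA raised 6 of 7 tested cofactors, Meis1 by 3.30 ± 0.24, and from the mesendoderm start 4 of 7, Meis1 by 2.54 ± 0.18 and Meis2 by 1.63 ± 0.14, where 16.9% and 14.4% of all genes were higher. Wnt lowered 5 of 7 from the undirected start, Meis2 by -2.02 ± 0.21, and 4 of 7 from the mesendoderm start, Meis1 by -1.33 ± 0.17, where 19.4% and 21.2% of all genes were lower. It raised no cofactor from either start. The Wnt effect was higher from the mesendoderm start for 4 of the 7 and for 4.14% of all genes, with Meis2 at 1.82 ± 0.26.

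Of the other Hox genes of paralogue groups 1 to 5, Wnt from the undirected start lowered 5 of 6 (19.4% of all genes), Hoxb5 by -3.21 ± 0.31 and Hoxb4 by -1.499 ± 0.220, and from the mesendoderm start raised 3 of 6 (19.9% of all genes), Hoxb4 by 1.26 ± 0.15 and Hoxb5 by 0.89 ± 0.19. Cdx1 and Cdx2, regulators of Hox genes in the trunk, rose with Wnt from both starts, by 2.75 ± 0.12 and 2.56 ± 0.14 from the undirected and by 2.52 ± 0.10 and 1.74 ± 0.10 from the mesendoderm start.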
